A study of Rattus norvegicus with 13 samples.

Results

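The cerebellin family comprises the genes Cbln1, Cbln2, Cbln3 and Cbln4. Its members were taken by gene symbol: every probe set (a group of short array probes summarised to 1 value) whose only gene symbol was one of these names. All 4 genes were found, each with 1 probe set, among 14506 genes and 15310 probe sets with 1 gene. The family was selected on measured values of these arrays (an array with a high Cbln4 signal, the correlations within the family and the diet difference), so those are given as descriptions. The arrays measured RNA of the brain without the cerebellum from male Fischer F344 rats aged 15 months. In the control group (7 arrays) the mothers ate a control diet, and in the fructose group (6 arrays) they ate a diet high in fructose, during gestation from day 1 and during lactation. The offspring of both groups were weaned on day 20 and then ate chow. The labels name no litters and do not say that each array came from a separate animal, so a p-value here reflects only how far these samples spread, which may be technical.

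Cerebellins are small secreted glycoproteins with a C1q domain that organise synapses. Released by the presynaptic cell, they bind neurexins on the axon. Some of them, such as Cbln1, also bind delta glutamate receptors, such as that encoded by Grid1, on the postsynaptic cell, and so bridge the synaptic cleft. Cbln1 holds together the synapses of cerebellar granule cells on Purkinje cells and is also made in some forebrain and thalamic neurons. Cbln3 is largely a product of cerebellar granule cells and is secreted in complexes with Cbln1. Cbln2 and Cbln4 are made by subsets of neurons outside the cerebellum, and Cbln4 also binds the netrin receptors encoded by Dcc and Neo1.

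The array medians lay between 7.99 and 8.07 on the log2 scale, and the interquartile range of the probe set signals was 2.19 in control replicate 1, 2.15 in control replicate 2 and 2.26 to 2.50 in the other 11 arrays. Signals come without detection calls, and levels of different probe sets cannot be compared, so the genes are not ranked by level. None of the 4 cerebellins lay among the 30% of probe sets with the lowest mean signal (below 7.1126). Cbln1 came near that limit, with a mean of 7.26 that includes 8.43 in fructose replicate 4. Its median over the 13 arrays, 7.1097, was below the limit. Of the defining cerebellar markers, Gabra6 (a GABA receptor subunit of granule cells) was in that dim range with 5.41 to 6.01 over the arrays, as was Fat2 (a granule cell cadherin) with 6.77 to 7.08. Barhl1, a transcription factor of granule cell precursors, ranged from 7.11 to 7.62 and Pcp2, of Purkinje cells, from 7.03 to 7.55. In whole tissue RNA, fewer cells of a type and less RNA per cell cannot be told apart.

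Cbln4 varied most of the 4 genes. In the control group its lowest, median and highest log2 signals were 7.34, 7.46 and 7.77, and in the fructose group 6.77, 7.77 and 10.42. The control arrays lay close together, whereas the fructose group held both the lowest value, that of replicate 3, and the highest, that of replicate 4, which stood 2.43 above the next array (7.996, fructose replicate 7), or 5.37-fold. Only 6 of the 14506 genes had a larger SD over the 13 arrays than Cbln4 (0.86). Only Nkg7 (6.23-fold, control replicate 2) had a highest array farther above the next one. Without fructose replicate 4 the SD of Cbln4 was 0.31, and 2.23% of genes had a larger one. The remaining 5 fructose arrays still ranged over 1.22, against 0.44 in the 7 control arrays, a difference in spread that was not tested. That range rested on fructose replicate 3, since the other 4 arrays lay between 7.56 and 7.996 and ranged over 0.43, a split made after the values were seen. The gap of an end array to the next one, relative to its group's range, exceeded Dixon's limit for Cbln4 and Cbln3 in the fructose group, where it did for 11.4% of all probe sets, and for 0 of the 4 cerebellins in the control group, where it did for 9.08%. Fructose replicate 4 was the high array in this sense for 1.34% of all probe sets. For Cbln4 this describes an array that was part of the choice of the family, and nothing is read from it.

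Cbln1 had a lowest, median and highest signal of 6.97, 7.11 and 7.66 in the control group and of 6.75, 7.10 and 8.43 in the fructose group. Fructose replicate 4 was again the highest array, 0.77 above control replicate 7, and the groups overlapped. The SD over all arrays was 0.42, and 1.10% of genes had a larger one.

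Cbln2 showed 8.13, 9.11 and 9.28 in the control group and 7.89, 9.24 and 9.64 in the fructose group. Here fructose replicate 4 was the lowest array. Control replicate 8 (8.13), fructose replicate 3 (8.31) and control replicate 7 (8.56) followed, and the other 9 arrays lay between 8.93 and 9.64. Arrays of both groups were thus found at both ends of the range. The SD was 0.54, exceeded by 0.524% of genes.

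Cbln3 was the steadiest member, with 7.49, 7.72 and 7.90 in the control group and 7.49, 7.70 and 7.79 in the fructose group. Its SD of 0.12 was near the median of all genes (0.11), and 43.6% of genes had a larger one. Control replicate 5 and fructose replicate 7 were both at 7.49, and control replicate 2 was highest.

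**Figure D1:**
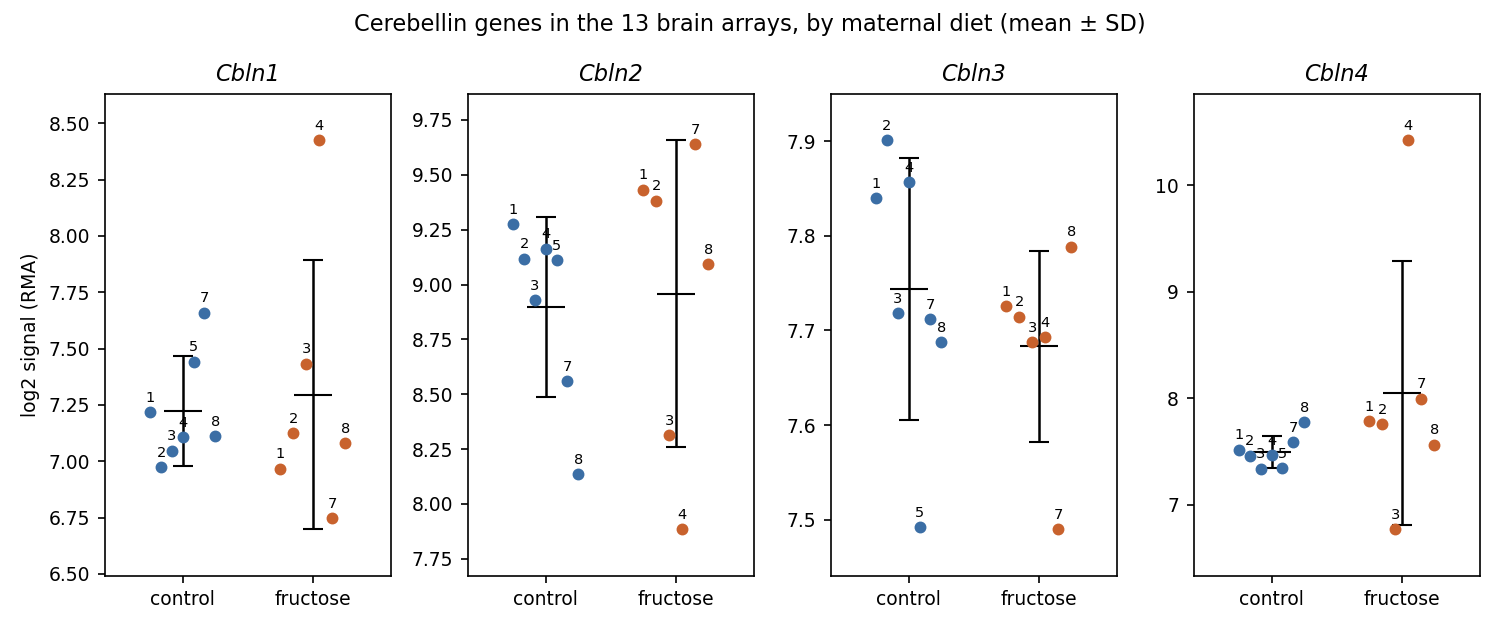
Log2 signal of each cerebellin gene (vertical axis, a separate scale for each gene) in the 7 control and 6 fructose arrays. Points are arrays with their replicate number, and the horizontal bar and whiskers are the group mean ± SD. Fructose replicate 4 is the highest array for Cbln4 (10.42) and Cbln1 (8.43) and the lowest for Cbln2 (7.89).

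The comparison of diets asked whether the mother's fructose intake left a difference in the old offspring. The diet difference of the members was also part of their choice, so their differences are descriptions, given with intervals from limma fitted over all 15633 probe sets with a gene. For completeness, 0 of the 4 cerebellins passed an adjusted p of 0.05, where 0% of all probe sets did, and 0 of the 4 had an unadjusted p under 0.05, where 2.23% did (1.33% with a positive and 0.896% with a negative difference), and nothing is read from these counts. The groups overlapped for every member, and 0.0384% of all probe sets had groups that did not overlap. For Cbln4 the control mean was 7.50 ± 0.15 (SD, n = 7), the fructose mean 8.05 ± 1.24 (SD, n = 6) and the difference 0.55 ± 0.40 (SE) with a 95% interval from -0.31 to 1.41. Without fructose replicate 4 the fructose mean was 7.57 ± 0.47 (SD, n = 5) and the difference 0.08. Of the 6 fructose arrays, 5 lay above the control mean of Cbln4. The same count was 2 for Cbln1, 4 for Cbln2 and 1 for Cbln3, given as descriptions.

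The mean of Cbln1 was 7.22 ± 0.24 (SD, n = 7) on the control and 7.30 ± 0.60 (SD, n = 6) on the fructose arrays, a difference of 0.07 with an interval from -0.38 to 0.53. The sign turned without fructose replicate 4, to -0.15. Cbln2 was at 8.90 ± 0.41 and 8.96 ± 0.70, a difference of 0.06 with an interval from -0.51 to 0.63. It was 0.27 without fructose replicate 4, -0.077 without fructose replicate 7, -0.068 without control replicate 8, -0.036 without fructose replicate 1 and -0.026 without fructose replicate 2. Cbln3 was at 7.74 ± 0.14 and 7.68 ± 0.10, a difference of -0.06 with an interval from -0.20 to 0.08. It was -0.10 without control replicate 5 and -0.022 without fructose replicate 7. These intervals leave room for a difference of either sign in each gene.

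The receptors and other genes of this synaptic system were taken as 4 lists. Of 7 receptors and bridging partners 5 were measured, and 0 passed in either direction. Grid1, the delta receptor found through much of the forebrain, had a mean of 9.74 ± 0.15 (SD, n = 7) on the control and 9.77 ± 0.23 (SD, n = 6) on the fructose arrays, a difference of 0.03, and its other probe set also showed overlapping means (8.68 ± 0.09 and 8.73 ± 0.09). The neurexin genes Nrxn2 and Nrxn3 differed by -0.05 and -0.07, with intervals from -0.25 to 0.14 and from -0.20 to 0.06. The second probe set of Nrxn2 had means of 8.95 in control and 8.98 in fructose arrays, so its difference had the other sign. Dcc, a netrin receptor of growing axons, differed by 0.06 (interval -0.28 to 0.40), and Neo1, which encodes the related receptor neogenin, by 0.05 (interval -0.07 to 0.17).

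None of the other 3 lists held a gene that passed. Of 14 other ligands of neurexins 10 were measured and 0 passed, with Lrrtm2 at -0.10, Lrrtm4 at -0.09 (both leucine-rich postsynaptic adhesion proteins) and Nlgn2, the neuroligin of inhibitory synapses, at 0.04. Of 5 genes of the C1q-like proteins and their receptor 4 were measured and 0 passed. C1ql1, the ligand that climbing fibres release, was at -0.11, its receptor Adgrb3 at -0.05 and C1ql2, which is made by hippocampal mossy fibres, at 0.15. Of 6 intracellular partners of the delta receptors 5 were measured and 0 passed, with the scaffold gene Homer3 at -0.12, Gopc, of receptor trafficking, at 0.05 and Grid2ip, which encodes delphilin, at 0.05. Over all 24 measured partner genes 14 had a positive and 10 a negative difference, beside 8453 and 7180 of the 15633 probe sets tested. Their median was 0.0094, beside 0.0056 over those probe sets. An unadjusted p under 0.05 in limma was found for 0 of the 24 genes and for 2.23% of all probe sets, and nothing is read from that 0.

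**Figure D2:**
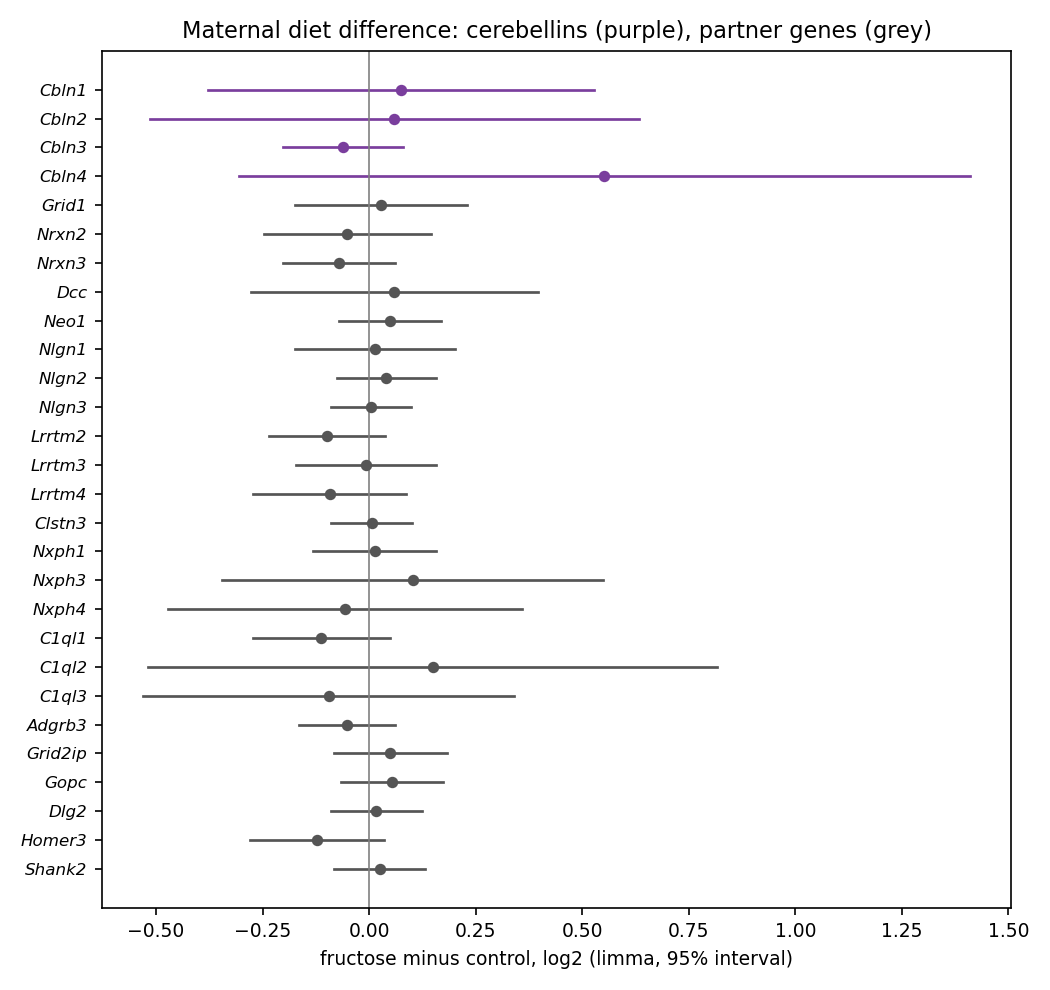
Difference in log2 signal between fructose and control arrays (horizontal axis) with its 95% interval from limma, for the 4 cerebellins (purple) and 24 partner genes (grey). Every interval includes 0, and that of Cbln4, from -0.31 to 1.41, is the widest.

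The array of fructose replicate 4 was described further, since it set the range of 3 cerebellins. Among all 14506 genes, Cbln4 was the gene by which this array lay farthest above the next array, and Cbln1 ranked 7 in the same order. C1ql2, of the related C1q-like family, ranked 5, with 9.06 in this array, 8.22 in control replicate 3 and 7.18 as the median of the other 12. Without this array the C1ql2 difference between diets was -0.16 in place of 0.15. The other genes of the first 10 were Dcn (decorin, a matrix proteoglycan of fibroblasts), Lcp1 (an actin bundling protein of leukocytes), Fermt1 (an adaptor of integrins), Nr4a2 (a nuclear receptor of dopamine neurons and of some deep cortical neurons), Rgs18 (a regulator of G protein signalling), Lpl (lipoprotein lipase) and Kctd4. Their excess over the next array ran from 1.17 for Dcn to 0.68 for Kctd4. Fructose replicate 4 was the highest array by over 0.5 for 33 genes, control replicate 8 for 37, control replicate 2 for 21 and each of the other 10 arrays for 0 to 8.

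**Figure D3:**
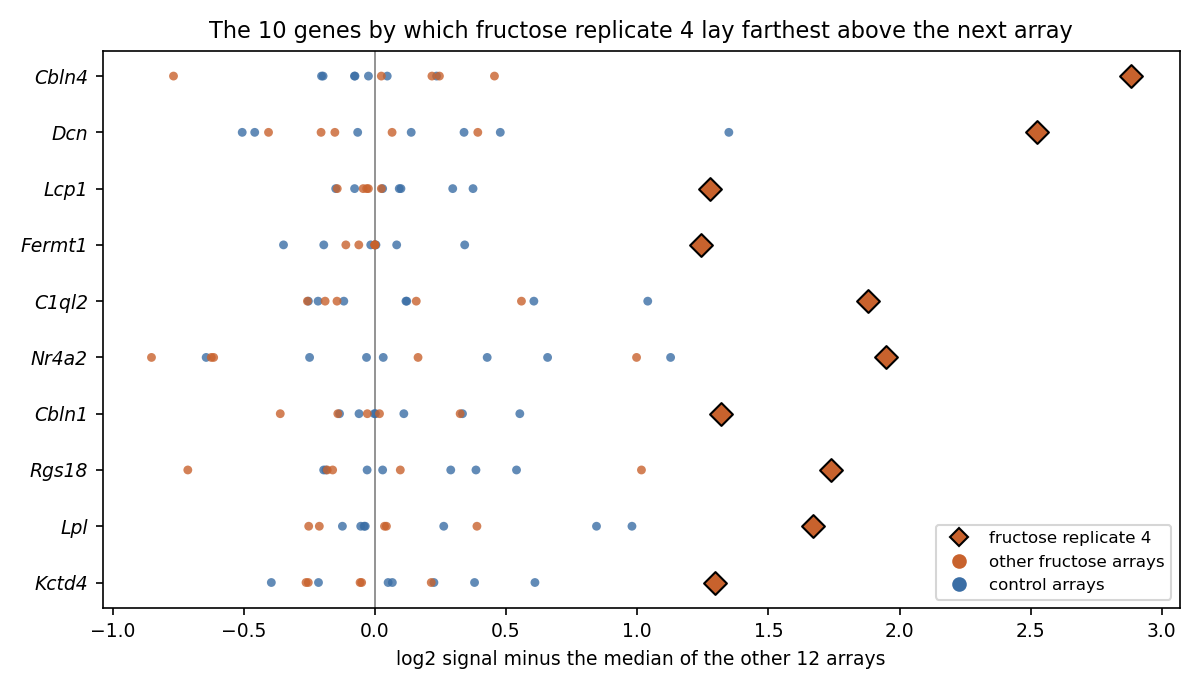
Log2 signal of the 10 genes by which fructose replicate 4 lay farthest above the next array, each minus its median in the other 12 arrays (horizontal axis). Diamonds are fructose replicate 4, and circles are the other fructose (orange) and control (blue) arrays. Cbln4 shows the longest distance to the next array, 2.43, and Cbln1 is also among the 10.

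Fructose replicate 4 was also the highest array for 4 of the 24 partner genes (16.7%, beside 6.76% of all genes): C1ql2, Dcc (9.50), Neo1 and Nxph3. It was the lowest for C1ql1 and Nrxn3 (8.33%, beside 7.71% of all genes). For marker lists, a score was formed as the mean over the measured genes of each gene's signal minus its own mean. Control replicate 8 had the highest score for thalamus (0.83), striatum (0.51), hypothalamus (0.38), astrocyte (0.31), microglia (0.24) and septum and basal forebrain markers (0.15). Of the 20 scores, 5 were highest in fructose replicate 4, and 1, that of olfactory bulb markers (-0.21), was lowest there. The score of meninges and fibroblast markers was 0.91 here and at most 0.75 elsewhere (control replicate 8). Its range was -0.52 to 0.75 in the control and -0.35 to 0.91 in the fructose group, and 3 of its 7 measured genes, Dcn, Col1a2 and Igf2, were highest in this array. The cortex and hippocampus score was 0.39 (at most 0.24 elsewhere), with Prox1 and Wfs1 of 6 genes highest here, and the midbrain dopamine neuron score 0.28 (at most 0.10), with Nr4a2 alone of 6. The granule cell and habenula scores were 0.17 and 0.19, against at most 0.14 and 0.17 elsewhere. The thalamus score was 0.53, second to control replicate 8. The part of these cell types in the Cbln4 and Cbln1 signals was not tested.

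Within the family, correlations over the 13 arrays are given without a test, since they were part of the choice of these genes. Cbln1 and Cbln2 ran in opposite directions, with r = -0.74 and rho = -0.62. Without the 2 arrays farthest from the median of Cbln1, fructose replicate 4 and control replicate 7, r was -0.50. Cbln1 and Cbln4 had r = 0.67 but rho = -0.08, and r was -0.54 without fructose replicate 4 and -0.75 without the 2 farthest arrays. The positive value thus rested on that array. Cbln2 and Cbln4 had r = -0.41 and rho = 0.15, and without fructose replicate 4 r was 0.48. Without fructose replicate 4 and control replicate 8, the 2 arrays farthest from the median of Cbln2, r was 0.82 and rho 0.72. For Cbln3 the correlations were near 0, with r = -0.08 with Cbln1, -0.01 with Cbln2 and -0.11 with Cbln4.

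**Figure D4:**
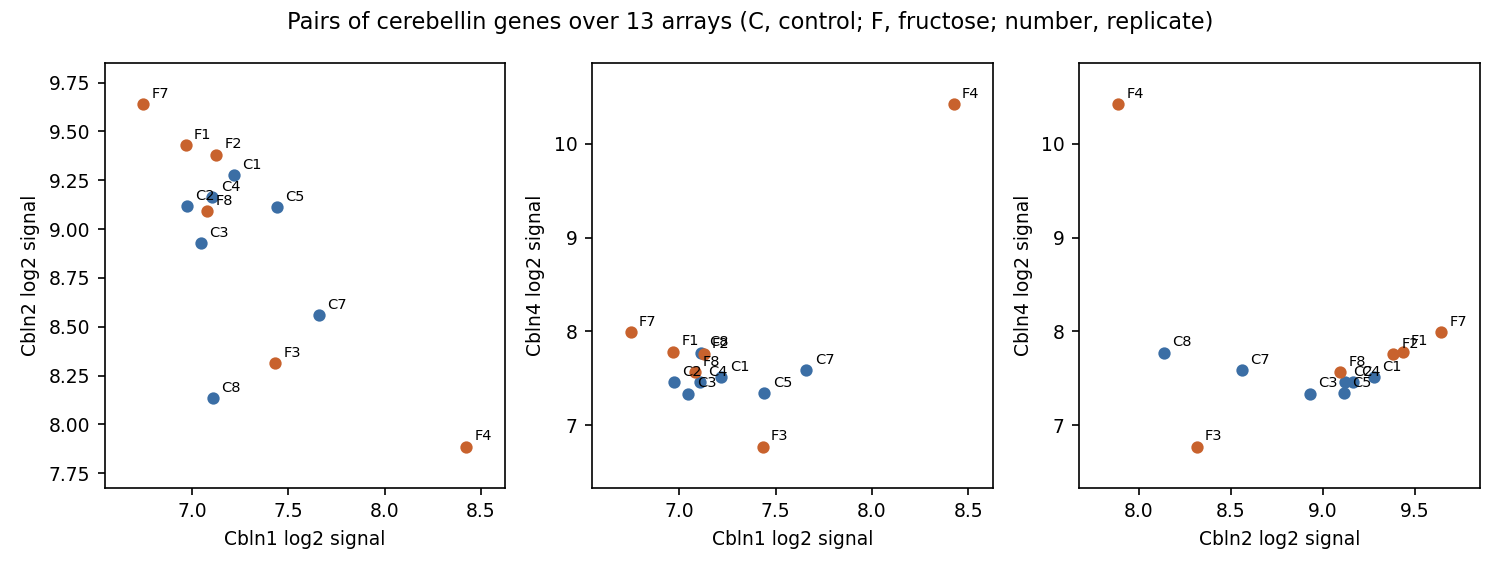
Log2 signals of pairs of cerebellin genes over the 13 arrays (blue, control; orange, fructose; labels give C or F and the replicate). In the middle and right panels fructose replicate 4 (F4) lies apart from all other arrays, and r changes from 0.67 to -0.54 and from -0.41 to 0.48 without it.

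The cerebellins were then set against the receptors they are known to bind, as descriptions over 13 arrays. Cbln4 and Dcc had r = 0.70 but rho = 0.29, and r was 0.07 without fructose replicate 4. For Cbln4 and Neo1 r was 0.36, and -0.09 without that array. Cbln2 and Grid1 had r = -0.70 and rho = -0.51, with -0.75 after leaving out the 2 arrays farthest from the Grid1 median. Cbln1 and Grid1 had r = 0.46 and rho = 0.36. Cbln1 and Nrxn3 had r = -0.81, but rho was -0.34 and r without the 2 farthest arrays -0.09, so that value rested on single arrays.

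Correlations with the 20 marker scores gave 80 pairs, each tested by permutation of the arrays and adjusted over all pairs. Of these, 4 passed an adjusted p of 0.05 with Pearson's r. The cerebellin values, among them those of fructose replicate 4, were part of the choice of the family, so these passes are given as descriptions. With Spearman's rho 0 of 80 passed, and none of the 4 passed without the 2 arrays farthest from the median score. Cbln2 and the thalamus score had r = -0.86 (permutation p = 0.00025, adjusted 0.0088) and rho = -0.69 (p = 0.0118, adjusted 0.105). Without control replicate 8 and fructose replicate 4, r was -0.78 with an adjusted permutation p of 0.0923. The thalamus genes Slc17a6, of the vesicular glutamate transporter of subcortical neurons, and Ntng1, of the adhesion protein netrin G1, were highest in the same 3 arrays. That split was made after the values were seen, and the 3 arrays were themselves spread. Ntng1 was at 9.09 in control replicate 8, 9.69 in fructose replicate 3 and 9.82 in fructose replicate 4, and at 8.61 in control replicate 7. Slc17a6 was at 7.83 to 9.15 in control replicate 8, fructose replicate 3 and fructose replicate 4 and at 6.07 to 6.82 in the other 10 arrays. Those 3 arrays were also the 3 lowest for Cbln2 and the 3 highest for Ntng1 (9.09 to 9.82, against 7.96 to 8.61). Within the other 10 arrays, r with Cbln2 was -0.43 for Slc17a6, -0.70 for Ntng1 and -0.53 for the score (adjusted permutation p = 0.589). Prkcd and Lef1, also in this list, did not share the sign, since 3 of the 5 measured genes had a negative r. Over the 13 arrays Cbln2 also had r = -0.72 with striatum, -0.70 with granule cell and -0.68 with midbrain dopamine neuron markers. With meninges and fibroblast markers r was -0.68, and each of these scores had an adjusted permutation p of 0.0782. The largest positive r of Cbln2 was 0.83, with Purkinje cell markers.

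Cbln2 and the score of Purkinje cell markers had r = 0.83 (permutation p = 0.00111, adjusted 0.0222) and rho = 0.74 (adjusted 0.0888). The score ranged from -0.16 to 0.10 in control and from -0.15 to 0.13 in fructose arrays. It was led by genes that forebrain neurons also express: Itpr1, an intracellular calcium channel, with r = 0.92 and rho = 0.92, and Pvalb, the calcium buffer of fast-spiking interneurons, with r = 0.82 and rho = 0.67, then Car8 with 0.54. Of the 7 measured genes 5 had a positive r, among them Pcp2, which defines Purkinje cells, with 0.35. Calb1, a calcium-binding protein, had -0.68 and Ppp1r17 -0.32. The call was lost without fructose replicate 4 (r = 0.77, adjusted permutation p = 0.0552), without control replicates 1 and 2 (r = 0.82, adjusted 0.0620) and after renewed quantile normalization (r = 0.78, adjusted 0.0707). It was also lost, and r was 0.35 without the 3 arrays with the lowest Cbln2.

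Cbln1 and the midbrain dopamine neuron score had r = 0.82 (permutation p = 0.00033, adjusted 0.0088) and rho = 0.71 (adjusted 0.0902). Only 2 of the 6 measured genes had a positive r, Nr4a2 with 0.86 and the dopamine transporter gene Slc6a3 with 0.10, while Slc18a2, the vesicular monoamine transporter, had -0.02. Nr4a2 was at 11.29 in fructose replicate 4 and at 8.49 to 10.47 in the other arrays. Without that array the score had r = 0.69 (adjusted permutation p = 0.131). Fructose replicate 4 was part of the choice of the family. It was highest for both Cbln1 (8.43) and the score (0.28, at most 0.10 elsewhere), so nothing is read from the pass over 13 arrays.

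Cbln3 and the choroid plexus score had r = 0.85 (permutation p = 0.00032, adjusted 0.0088) and rho = 0.78 (adjusted 0.0888), and all 6 measured genes had a positive r, with Aqp1 (a water channel) at 0.76, Clic6 at 0.70 and Kl (klotho) at 0.64. The score ranged from -0.19 to 0.17 in control and from -0.25 to 0.19 in fructose arrays. Cbln3 also ran against the interquartile range of the arrays, with r = -0.86 and rho = -0.83, and r = -0.83 without control replicates 1 and 2. Only 2.14% of genes had a lower r with that range, and the choroid plexus score itself had r = -0.68 with it. After quantile normalization was run again, r between Cbln3 and the score was 0.69 (adjusted permutation p = 0.0843). Without control replicates 1 and 2, the 2 narrowest arrays, it was 0.86 (adjusted 0.0301), and with arrays centred on their medians 0.88 (adjusted 0.0076). Without fructose replicates 7 and 8, the 2 arrays farthest from the median score, it was 0.80 (adjusted 0.0509). Over the 13 arrays as deposited, Cbln3 also had r = 0.74 with the pituitary and 0.73 with the habenula score (adjusted permutation p = 0.0782 and 0.0683). Those scores had r = -0.93 and -0.78 with the interquartile range. For the other cerebellins r with the interquartile range was 0.16 (Cbln1), -0.22 (Cbln2) and 0.15 (Cbln4). The part of the array distribution in the Cbln3 signal was not tested.

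For Cbln4 no score passed over the 13 arrays. The largest r was 0.64 with meninges and fibroblast markers (permutation p = 0.0108, adjusted 0.0782), and 0.24 without the 2 arrays farthest from the median score. The midbrain dopamine neuron score had r = 0.38 and rho = -0.38 with Cbln4 (adjusted permutation p = 0.520 for r). Without fructose replicate 4 the sign of r turned and the pair passed, with r = -0.79 (adjusted permutation p = 0.0142). Without the 3 arrays with the lowest Cbln2 r was -0.88 (adjusted 0.0277), and without fructose replicates 4 and 7, the 2 farthest arrays, -0.72 (adjusted 0.0923). These settings all leave out fructose replicate 4, which was part of the choice of the family, so nothing is read from a pass. Among the measured genes of the midbrain dopamine neuron score, Nr4a2 varied most, from 8.49 to 11.29 over the arrays. The part of dopamine neurons in this score was not tested. Cerebellar granule cell markers had r = 0.40 with Cbln1, -0.70 with Cbln2, 0.22 with Cbln3 and 0.56 with Cbln4, and none of these passed. Of the defining genes, Gabra6 had r = -0.36 with Cbln1 and -0.11 with Cbln3, and Fat2 and Barhl1 had 0.76 and 0.77 with Cbln3. The other measured granule cell markers had r from -0.21 to 0.39 with Cbln3. Over all genes, 4.81% had r over 0.7 with Cbln3. Fat2 and Barhl1 were both highest in control replicate 2, the array with the narrowest distribution.

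**Figure D5:**
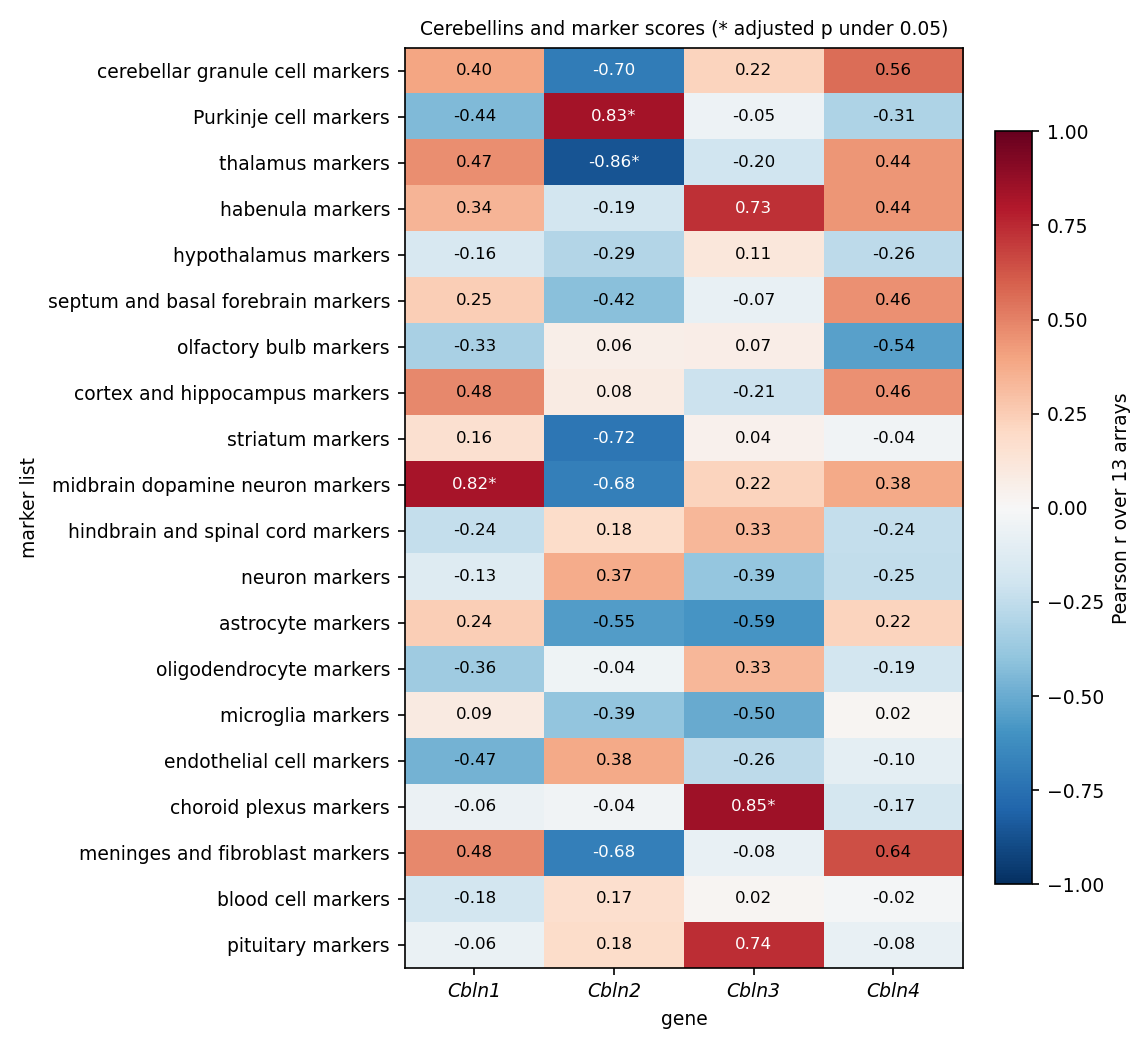
Pearson's r over the 13 arrays between each cerebellin (columns) and the score of each of 20 marker lists (rows), with colour from -1 (blue) to 1 (red). Asterisks mark the 4 of 80 pairs with an adjusted permutation p under 0.05: Cbln2 with thalamus (-0.86) and Purkinje cell markers (0.83), Cbln1 with midbrain dopamine neuron markers (0.82), and Cbln3 with choroid plexus markers (0.85).

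The genes whose signals followed each cerebellin most closely over the 13 arrays were named by Pearson's r, as a description. For scale, the median over all genes of the highest r with any other gene was 0.91. The 5 nearest to Cbln1 were Slc7a8 (an amino acid transporter, r = 0.92), Galnt14 (a glycosyltransferase, 0.92), Kremen1 (a receptor of Wnt inhibitors, 0.90), Sstr2 (a somatostatin receptor, 0.89) and Ptger3 (a prostaglandin receptor, 0.88). Spearman's rho was 0.70 to 0.92 for these, and r without fructose replicate 4 was 0.64 to 0.84.

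Cbln2 was followed by Klc2 (a kinesin light chain, r = 0.97), Olfm3 (a secreted olfactomedin, 0.96), Hecw1 (a ubiquitin ligase, 0.95), Lrrc8b (a subunit of volume-regulated anion channels, 0.95) and Kcnh7 (a potassium channel, 0.95), with rho from 0.81 to 0.92. These stood at 0.93 to 0.96 without fructose replicate 4. Klc2 was at 10.22, 10.26 and 10.27 in fructose replicate 4, control replicate 8 and fructose replicate 3, the 3 arrays with the lowest Cbln2, and at 10.42 to 10.75 in the others.

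Cbln3 was followed by Kif2c (a mitotic kinesin, r = 0.96), the olfactory receptor gene Or8k31 (0.94), Lypd4 (0.93), Prb1 (0.93) and Mtarc1 (0.92). All 5 ran against the interquartile range of the arrays, with r from -0.75 to -0.91.

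For Cbln4 the nearest genes were Ankrd34b (r = 0.92), Pals2 (a membrane scaffold protein, 0.92), Pggt1b (a subunit of a prenyltransferase, 0.90), Samd9l (0.89) and Lcp1 (0.89), with rho from 0.23 to 0.77. Without fructose replicate 4, r was 0.80 for Ankrd34b, 0.82 for Pals2, 0.68 for Pggt1b, 0.41 for Samd9l and 0.22 for Lcp1. Over those 12 arrays the nearest genes were Angptl4 (a lipase inhibitor, r = 0.92), Nova1 (an RNA-binding protein of neurons, 0.84), Slco1a4 (a transporter of the blood-brain barrier, 0.83), Pals2 (0.82) and Lrba (0.82), a repeat that was chosen after the values were seen.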

How the data were processed

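The values were log2 signals as deposited by the authors, 1 for each of 29214 probe sets on 13 arrays. Per the submitters' processing notes, RMA (which corrects background, normalizes by quantiles and summarises probes) and R 3.0.1 were used. Labelled cRNA was made from 100 ng of RNA, per the labels' protocols. Genes came from the platform annotation, and the 4 cerebellin identifiers matched the same symbols in a RefSeq gene table. For genes with several probe sets the one with the highest mean was used. Diets were compared, as fructose minus control, by limma 3.58.1 (lmFit and eBayes under R 4.3.3) on all 15633 probe sets that have a gene, without a filter, with Benjamini-Hochberg adjustment over all of them and 0.05 as the threshold. Correlations with marker scores were tested with 100000 permutations, 2-sided, in Python 3.11.15 with numpy 2.4.6. The scripts were tested on simulated data. The members, the 24 gene lists and the tests were chosen with earlier results of these data known. Genes named were the members, all receptors, 3 genes of each other partner list by unadjusted p, the 5 genes most correlated with each cerebellin, the 10 genes highest in the array with the highest Cbln4, defining cerebellar markers and up to 3 genes of each marker list past the threshold. Nkg7, Prkcd, Lef1, Col1a2, Igf2, Prox1, Wfs1 and Nxph3 were named after their values were seen. Alternatives covered normalization, filters, weights, the variance prior, the replicate number and the arrays included. How precise a value can be is limited by how many arrays each group has.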

Additional observations from a re-analysis of the deposited data

Results flagged for a closer look

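A sample was singled out where its gap to the next sample took an unusually large part of its group's range (Dixon's test). Among the 4 cerebellins and 24 partner genes, 6 of 56 combinations of gene and group had such a sample, and over all probe sets 11.4% did in the fructose and 9.08% in the control group, where chance gives about 5%. Fructose replicate 4 was the high sample for Cbln4 (10.42, next 7.996, a gap of 0.665 of the range). The family was chosen with this array in view, so its appearance here was fixed by the choice and is only a description. The same array was the high sample in this way for 1.34% of all probe sets. Fructose replicate 7 was the low sample for Cbln3 (7.49, next 7.69). In the control group, replicate 2, which has the narrowest distribution of all arrays, was low for Dcc (8.19, next 8.60) and Nlgn2 (9.28, next 9.48). Fructose replicate 8 was low for Dlg2 (11.42, next 11.62) and fructose replicate 1 for Nlgn3 (10.22, next 10.34). The cause was not tested.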

How the results depend on the processing

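No cerebellin and no partner gene passed the threshold in limma under any alternative run. The sign of the Cbln1 difference turned with array weights (-0.026) and without fructose replicate 4. Leaving out 1 array at a time gave -0.152 to 0.184 for Cbln1, -0.0774 to 0.273 for Cbln2 (negative in 4 of the 13 fits), -0.103 to -0.0221 for Cbln3 and 0.0777 to 0.808 for Cbln4, the highest without fructose replicate 3. The difference of Cbln3 was -0.010 and that of Cbln2 0.178 without the 2 arrays with the narrowest distributions. With the replicate block (12 arrays) the differences were 0.110, 0.0947, -0.103 and 0.53 for Cbln1 to Cbln4, and 0 passed. Each number held 1 array of each diet, so the design fixed that these arrays gave the same differences without the block. Deviations of samples with the same number correlated from -0.335 to 0.187. The labels do not say what the numbers mean, and whether they pair the samples was not tested. With 1 array left out, r ran from -0.881 to -0.568 for Cbln1 and Cbln2, -0.365 to 0.0114 for Cbln1 and Cbln3, -0.543 to 0.767 for Cbln1 and Cbln4, -0.0763 to 0.277 for Cbln2 and Cbln3, -0.597 to 0.483 for Cbln2 and Cbln4, and -0.228 to -0.0699 for Cbln3 and Cbln4. Without the 2 arrays farthest from the median r was -0.504 for Cbln1 and Cbln2, -0.753 for Cbln1 and Cbln4, 0.822 for Cbln2 and Cbln4 and -0.253 for Cbln3 and Cbln4. Without the array with the highest Cbln4, r was -0.543 for Cbln1 and Cbln4 and 0.483 for Cbln2 and Cbln4. Without the 3 arrays with the lowest Cbln2, a setting chosen after seeing the data, r was 0.639 for Cbln2 and Cbln4 and -0.331 for Cbln3 and Cbln4. Of the 80 pairs of a cerebellin and a marker score, 4 passed in the report. The number was 2 after renewed quantile normalization (2 shared with the 4), 2 without the 2 farthest arrays (0 shared), 3 without the 2 narrowest arrays (3 shared), 5 on residuals from the group means (4 shared), 6 with arrays centred on their medians (4 shared) and 4 without the 3 arrays with the lowest Cbln2 (1 shared). Without fructose replicate 4 it was 5 (2 shared), the others being Cbln4 with midbrain, Cbln2 with striatum (r = -0.865) and Cbln3 with habenula markers (r = 0.873). That array was part of the choice of the family, so nothing is read from this count. The cause was not tested.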
